A study of Mus musculus with 6 samples.

Results

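Enzymes and carriers of glucose breakdown and glucose synthesis were followed in small-intestinal epithelium of 14-day-old C57BL/6 mice, freed from the underlying tissue with EDTA, so that other cells may remain in it. The set held 37 listed genes, known members of glycolysis, gluconeogenesis and the pentose phosphate pathway, chosen with earlier results of these data known. A probe set was taken for a gene only where the platform annotation named that gene alone. Of the 37 genes 34 had such a probe set, of 18194 genes in all, and 33 were bright enough to test, of 12995. Gpi1, Eno1 and G6pdx had no probe set named for them alone and are not analysed here, and Eno2 stayed under the floor of 16 intensity units on all 6 arrays. In 3 samples, called N-cadherin replacement, the epithelium had the genotype Ecadflox/Ncad;Vil-Cre: N-cadherin stood in for E-cadherin, the main adhesion protein between epithelial cells, and Vil-Cre, a recombinase driven by the villin promoter of gut epithelium, removed the floxed E-cadherin allele. The other 3 samples, called control, were E-cadherin-positive littermates whose alleles are not given further. RNA was read on Affymetrix expression arrays, 1 array per sample, and the labels do not say how many animals a sample held, so the p-values cover no more than the spread among the samples at hand.

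Glycolysis splits glucose into pyruvate, which becomes lactate or enters the mitochondria. Gluconeogenesis runs the other way and bypasses the irreversible steps of glycolysis with enzymes of its own, above all phosphoenolpyruvate carboxykinase, fructose bisphosphatase and glucose phosphatase. The pentose phosphate pathway branches off after the first phosphorylation and supplies NADPH and ribose for nucleotides. Enterocytes take up dietary sugar at the brush border and pass it to the blood through the basolateral carrier Slc2a2, and the suckling rodent intestine is known to express gluconeogenic enzymes.

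Control 2 and control 3 had log2 ratios with an SD of 0.115 over 5131 bright probe sets, within the range that 18 hybridization controls gave over all array pairs (0.0812 to 0.134), while the SD of every other same-group pair was 0.346 to 0.563. They were counted as 1 sample, which left 3 replacement and 2 control replicates. Cdh1, which encodes E-cadherin, had intensities of 1073, 1175 and 1357 in the replacement arrays, against 2757, 2335 and 2204 in the control arrays, a fall in the direction of the labels (log2 difference -1.06, SE 0.240, adjusted p = 0.0250). Whether its probe set lies in the deleted part was not examined. Enterocyte markers were high in both groups: Vil1 had 2768 to 3259 intensity units in the replacement arrays and 2897 to 3140 in the control arrays, and none of the 8 enterocyte markers tested passed the threshold. Lct, the brush border lactase, had 3325, 1668 and 2247 in the replacement arrays, against 4496, 3879 and 4088 in the control arrays, without overlap but not past the threshold (-0.87, adjusted p = 0.117). Of 7 general epithelial markers 3 rose, where 4.46% of all genes did, namely (log2 differences) the keratins Krt19 (1.27) and Krt20 (1.35) and the claudin Cldn3 (1.07). The keratins Krt8 (0.40) and Krt18 (0.76) did not pass, and Epcam (0.18) and Cldn7 (0.09) overlapped between the groups. The summed intensity of that list was 22169 to 27489 in the replacement arrays and 15688 to 16566 in the control arrays. Mmp7 of Paneth cells rose (2.47-fold, 1 of 3 tested). The other Paneth markers tested, Lyz1 (log2 difference -0.53) and Ang4 (0.21), differed in sign, overlapped between the groups and did not pass. Gip of enteroendocrine cells (log2 difference -2.06, 1 of 5 tested) and S100b of glia (-1.65, the only marker of its list tested) fell. Control 1 stood apart in stromal transcripts. The summed intensity of 7 fibroblast markers was 384 to 491 in the replacement arrays, against 1187 in control 1 and 200 and 208 in control 2 and control 3, and no fibroblast marker passed of 6 tested. Pdgfra, a defining marker of fibroblasts, had 69.6 in control 1 and at most 2.9 on every other array. The summed markers of leukocytes were 356 to 512 in the replacement arrays and 298 to 664 in the control arrays, and those of endothelium 67.8 to 113 and 61.0 to 172. Sexes were mixed too: Xist was high in replacement 2 and 3 (440 and 578) and in control 1 (2305), whereas the Y-linked Eif2s3y was high in control 2 and control 3 (410 and 418) and lower, at 114, in replacement 1. The part of these cell types in the differences below was not tested beyond the values given with them. Sex was a covariate in 1 of the alternative fits given at the end.

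Of the 33 genes tested 11 rose and 4 fell (limma, Benjamini-Hochberg adjusted p under 0.05 over all genes tested), which is 33.3% and 12.1% of them, or 45.5% together. Across all 12995 genes 9.12% passed, 4.46% higher and 4.66% lower. A difference above 0, whatever its test, was found for 22 of the 33, against 48.0% of all genes. The genes that rose were the glucose carrier Slc2a1, the hexokinases Hk1 and Hk2, the lower glycolytic enzymes Aldoa, Pgk1, Pgam1, Pgam2 and Pkm, the pyruvate dehydrogenase kinase Pdk1, the carboxylase Pcx and Pgd of the pentose phosphate pathway. Pgam2 was under the floor on all control arrays and so entered the test through the replacement arrays alone. Those that fell were Pck1, Fbp1 and G6pc of gluconeogenesis and Pfkfb3, which makes an activator of phosphofructokinase. The median log2 difference (replacement minus control) of the set was 0.36 and its median absolute log2 difference 0.93, against -0.02 and 0.33 over all genes. All 3 replacement arrays lay over all 3 control arrays for 18 genes of the set and under them for 7, where 17.8% and 18.8% of all genes did so. In bulk samples a change in the share of a cell type cannot be told apart from a change of RNA per cell.

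The calls rested on few control samples. Without control 1, and likewise without control 2 and control 3, only 1 control replicate was left and the calls of the 15 genes were not kept. The median log2 difference of the 33 genes was then 0.40 and 0.33. Such a fit borrows the spread of its only control replicate from the replacement samples. Without replacement 2, 6 genes rose and 3 fell, and without replacement 3, 5 and 3. The sign of the difference of the 15 genes was the same in each of these fits. It was also the same within the samples with Xist (1 control and 2 replacement arrays) and within those with Y-linked transcripts (2 control arrays and 1 replacement array). The groups overlapped for none of the 15 genes, so the sign could not have differed in any of these comparisons.

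**Figure D1:**
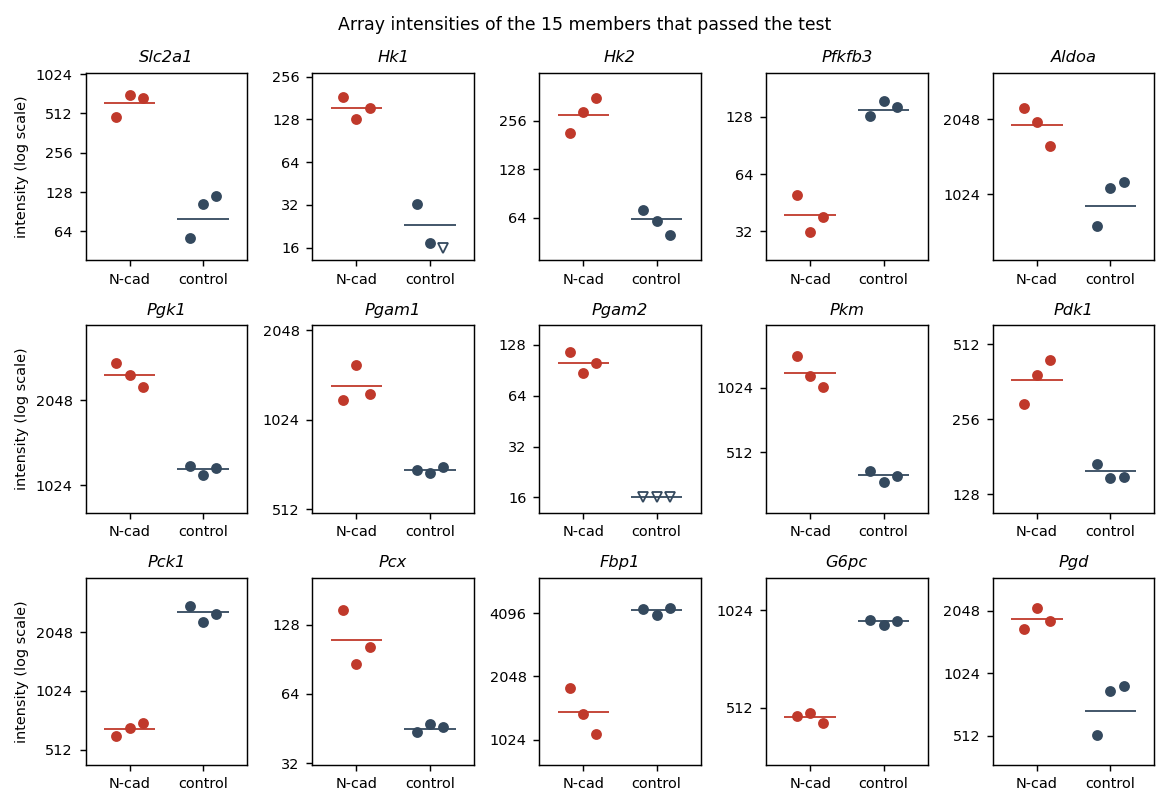
Probe set intensity on each array (log scale) for the 15 genes that passed the test, with the N-cadherin replacement arrays in red on the left of each panel and the control arrays in dark blue on the right; lines are the means used in the fit and open triangles are arrays under the floor of 16. The groups do not overlap in any panel, with replacement over control in 11 panels and under it in 4.

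All 3 genes of glucose entry and its first phosphorylation rose. Slc2a1 encodes a facilitative carrier that brings glucose into many proliferating cells. Its intensity was 482, 706 and 670 in the replacement arrays, against 56.6, 104 and 119 in the control arrays. Each replacement array lay far over the highest control array, and control 1 was the lowest of all. The rise was 7.70-fold (log2 difference 2.94, SE 0.326, adjusted p = 8.69e-04), and the other probe sets of Slc2a1 gave log2 differences of 2.99 and 2.10. Hk1 and Hk2 encode hexokinases, which trap glucose in the cell by phosphorylation. Hk1 had 185, 130 and 155 in the replacement arrays, against 32.4, 17.1 and 10.9 in the control arrays. Control 3 lay under the floor and was set to it, so the rise of 6.69-fold (2.74 on the log2 scale, SE 0.319, adjusted p = 0.00105) is a lower bound. Its dim second probe set reached 16.3, 19.9 and 12.0 in the replacement arrays and at most 5.9 in the control arrays. Hk2 had 214, 289 and 352 in the replacement arrays, against 71.3, 61.2 and 50 in the control arrays. This is 4.44-fold higher (log2 difference 2.15, SE 0.279, adjusted p = 0.00180). Leaving out 1 replicate at a time gave log2 differences of 2.46 to 3.43 for Slc2a1, 2.26 to 3.23 for Hk1 and 1.97 to 2.34 for Hk2, and the lowest and highest values of the first pair came from the fits without control 1 or without control 2 and control 3. Within the samples with Xist Slc2a1 differed by 3.60 and within those with Y-linked transcripts by 2.12.

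The bases before the start of Slc2a1 and of Pgk1 are shown because both genes rose and both stretches hold the core letters ACGTG of the hypoxia response element, and that of Pck1 because it fell and holds the half-site CGTCA of the cAMP response element, a site for which the Pck1 promoter is a textbook case. Each is the 250 bases before the annotated start (RefSeq, GRCm38.p6, plus strand), 5′ to 3′, at chr4:119108495-119108744 for Slc2a1, chrX:106186850-106187099 for Pgk1 and chr2:173152823-173153072 for Pck1, with the motif of that gene in capitals on either strand.
Slc2a1: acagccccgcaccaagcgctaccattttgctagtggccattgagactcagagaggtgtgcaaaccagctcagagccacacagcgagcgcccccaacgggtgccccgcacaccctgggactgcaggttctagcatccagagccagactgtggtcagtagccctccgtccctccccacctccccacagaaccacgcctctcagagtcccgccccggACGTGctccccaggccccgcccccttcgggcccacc
Pgk1: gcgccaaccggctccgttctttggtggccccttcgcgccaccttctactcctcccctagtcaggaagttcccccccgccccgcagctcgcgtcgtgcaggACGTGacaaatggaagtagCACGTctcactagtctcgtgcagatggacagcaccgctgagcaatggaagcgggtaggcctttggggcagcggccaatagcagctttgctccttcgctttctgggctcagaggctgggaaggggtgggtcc
Pck1: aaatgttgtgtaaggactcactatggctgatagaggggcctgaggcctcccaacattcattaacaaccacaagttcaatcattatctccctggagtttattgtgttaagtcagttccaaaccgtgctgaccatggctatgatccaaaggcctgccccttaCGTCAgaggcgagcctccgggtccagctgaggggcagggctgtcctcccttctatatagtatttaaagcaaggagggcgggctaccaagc
Slc2a1 held 1 match, Pgk1 held 2, of which the second is read from the other strand (CACGT), and Pck1 held 1. All 37 listed genes had such stretches, 54 in all since some genes have several starts. ACGTG on either strand was found in 8 of 18 stretches of the genes that rose (44.4%) and in 2 of 5 of the genes that fell, both of Pfkfb3. It was found in 33.3% of the stretches of all listed genes and in 21.1% of 13373 stretches of the 10510 tested genes that had one. Of the genes that rose Hk1, Pdk1, Pgam2 and Pgd had it in no stretch. The E-box CACGTG, whose letters contain ACGTG, was found in 1 of those 18 stretches (5.56%), against 7.99% over those tested genes. CGTCA was found in 3 of 5 stretches of the genes that fell, namely 1 of Pck1 and both of Pfkfb3, and in 1 of 18 of those that rose, against 25% over those tested genes. These are matches of letters and describe the sequence only.

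At the phosphofructokinase step, which commits sugar to glycolysis, no subunit passed and Pfkfb3 fell. Pfkfb3 encodes a bifunctional enzyme whose product activates phosphofructokinase. It had 49.7, 31.7 and 37.9 in the replacement arrays, against 129, 154 and 144 in the control arrays. Every replacement array lay under every control array, a 3.54-fold fall (log2 difference -1.83, SE 0.264, adjusted p = 0.00304), and with 1 replicate left out at a time the difference nearest to 0 was -1.67. The platelet-type subunit Pfkp had 1026, 1132 and 1134 in the replacement arrays, against 649, 662 and 655 in the control arrays. These groups were tight and did not overlap, but the log2 difference of 0.75 (95% interval 0.24 to 1.25, adjusted p = 0.0709) missed the threshold. Its probe sets disagreed: a dimmer one gave 1.66 (adjusted p = 0.0255 over every probe set) and another near the floor -0.05. The liver-type subunit Pfkl had a log2 difference of 0.51 (95% interval 0.01 to 1.01, adjusted p = 0.20), and the muscle-type subunit Pfkm one of -0.23 (-0.86 to 0.40, adjusted p = 0.679) with overlapping groups.

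In lower glycolysis 4 of 8 tested genes rose and none fell. Aldoa encodes the aldolase that cleaves the phosphorylated sugar into trioses. It had 2286, 2007 and 1597 in the replacement arrays, against 764, 1084 and 1148 in the control arrays. Its 2.10-fold rise (log2 difference 1.07, SE 0.272, adjusted p = 0.0400) passed narrowly and was lost in each fit that left out a replicate (0.80 to 1.35, adjusted p of 0.0634 to 0.310) and after the arrays were set to equal medians (1.06, adjusted p = 0.0607). All 5 Aldoa probe sets carry the suffix of possible cross-hybridization, and 4 gave 0.96 to 1.17 and the last 0.26. Pgk1, the kinase of the first ATP-forming step, had 2757, 2501 and 2282 in the replacement arrays, against 1200, 1118 and 1181 in the control arrays. The control arrays lay close together and the groups were far apart, a 2.13-fold rise (log2 difference 1.09, SE 0.229, adjusted p = 0.0183). Its other probe sets gave 0.80 and 2.41. Without replacement 2 its adjusted p was 0.0643 and without replacement 3 it was 0.0626, at log2 differences of 1.10 and 1.16.

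The phosphoglycerate mutases Pgam1 and Pgam2 convert the product of Pgk1. Pgam1, the widely expressed form, had 1194, 1569 and 1248 in the replacement arrays, against 697, 677 and 709 in the control arrays, a 1.91-fold rise (log2 difference 0.93, SE 0.238, adjusted p = 0.0409). Pgam1 no longer passed when replacement 2 (0.81, adjusted p = 0.134) or replacement 3 (0.98, adjusted p = 0.113) was left out, nor after the arrays were set to equal medians (0.92, adjusted p = 0.0545). Pgam2, the form typical of muscle, had 116, 87.0 and 99.4 in the replacement arrays, against 7.4, 12.2 and 7.1 in the control arrays. All control arrays lay under the floor, so Pgam2 entered the test through the replacement arrays alone. Its rise was 6.26-fold or more (2.65 or more on the log2 scale, SE 0.238, adjusted p = 3.90e-04). The floor left no spread among its control values, so this SE and adjusted p do not measure the spread of the controls. With a floor of 1 the log2 difference was 3.59. The summed intensity of the skeletal muscle markers was 140 to 164 in the replacement arrays and 103 to 163 in the control arrays. None of 3 tested passed, and they differed in sign (log2 differences of 0.54 for Acta1, -0.09 for Ckm and -0.42 for Mylpf). Tnnt3 and Myh4 stayed at or under 5.5 on all arrays. The source of the Pgam2 signal was not tested.

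Other enzymes of this stretch missed the threshold. Gapdh, the dehydrogenase often used as a reference transcript, had 5275, 4024 and 4598 in the replacement arrays, against 3670, 3303 and 3677 in the control arrays, without overlap and with a log2 difference of 0.36 (95% interval -0.17 to 0.90, adjusted p = 0.393). It was read by control probe sets of the array that the annotation names for Gapdh. Tpi1, which interconverts the trioses, had 0.29 (-0.25 to 0.84, adjusted p = 0.518). Aldoc, the brain-type aldolase, had 94.6, 46.0 and 62.4 in the replacement arrays, against 24.4, 41.8 and 48.4 in the control arrays, so the groups overlapped, and the difference was 0.97 (0.15 to 1.78, adjusted p = 0.136). The muscle enolase Eno3 had -0.37 (-0.99 to 0.25, adjusted p = 0.466). Eno2, the neuronal enolase, reached 10.7 at most, in a replacement array, and is given no fold.

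**Figure D2:**
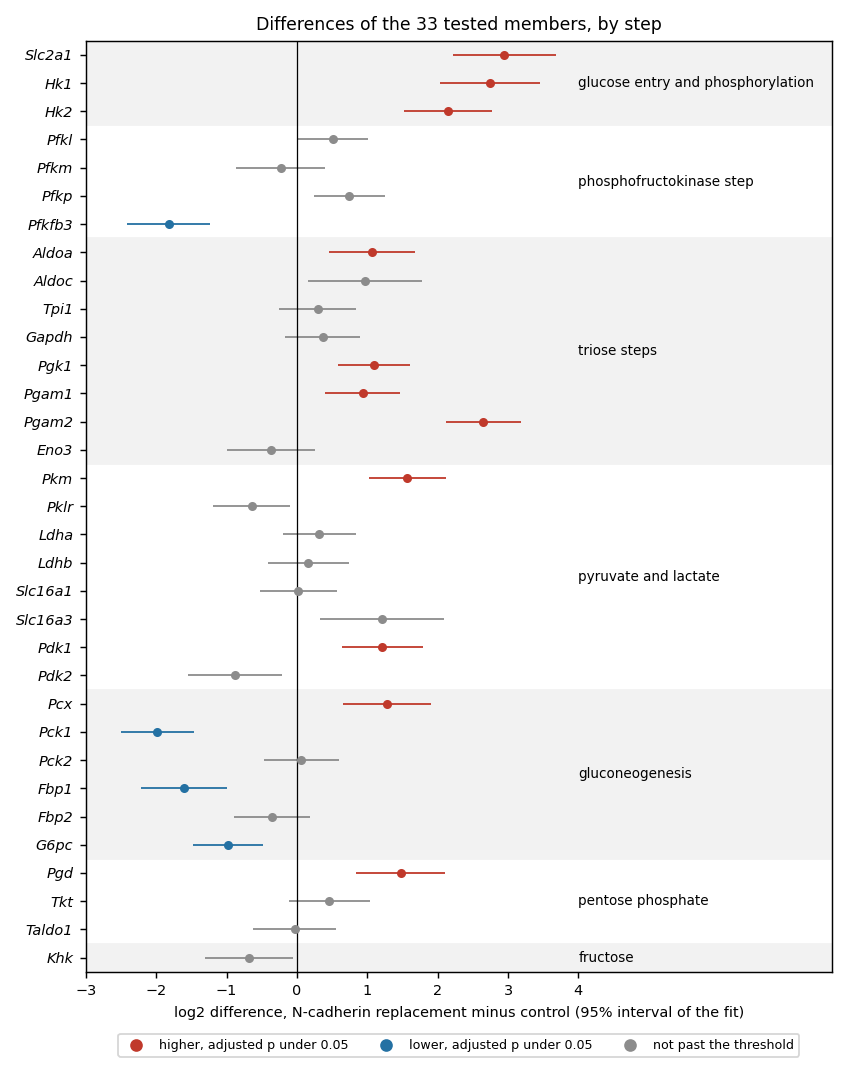
Log2 difference (replacement minus control) of the 33 tested genes on the horizontal axis, ordered by step of the pathway, with the 95% interval of the limma fit; red is higher and blue lower at an adjusted p under 0.05, and grey did not pass. Slc2a1, Hk1, Hk2 and Pgam2 lie at 2.15 or more, and Pck1, Pfkfb3, Fbp1 and G6pc at -0.98 or beyond.

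At the pyruvate end 2 of 8 genes rose. Pkm, the pyruvate kinase gene of most tissues, had 1429, 1159 and 1029 in the replacement arrays, against 420, 375 and 398 in the control arrays. It rose 2.97-fold (log2 difference 1.57, SE 0.244, adjusted p = 0.00463), with 1.44 to 1.68 when 1 replicate was left out. Spliced forms of Pkm were not told apart. Pklr, the pyruvate kinase gene of liver and red cells, had 400, 365 and 304 in the replacement arrays, against 508, 585 and 623 in the control arrays. These did not overlap, yet the difference of -0.64 (95% interval -1.19 to -0.10, adjusted p = 0.138) missed the threshold, and other Pklr probe sets gave -0.49 and 0.21. Pdk1 encodes a kinase that shuts pyruvate dehydrogenase, the enzyme that passes pyruvate on to oxidation in the mitochondria. It had 293, 386 and 443 in the replacement arrays, against 169, 148 and 150 in the control arrays, a 2.32-fold rise (log2 difference 1.22, SE 0.258, adjusted p = 0.0196). Pdk1 no longer passed when replacement 2 (1.18, adjusted p = 0.0739) or replacement 3 (1.08, adjusted p = 0.0936) was left out, and its dimmer probe sets gave 0.78 and 0.61. Pdk2, a kinase of the same family, had 141, 113 and 74.8 in the replacement arrays, against 179, 205 and 216 in the control arrays, with a difference of -0.88 (-1.55 to -0.21, adjusted p = 0.105).

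Lactate genes gave little. Ldha, the lactate dehydrogenase subunit of glycolytic tissue, had 4168, 3362 and 3449 in the replacement arrays, against 2894, 2868 and 3035 in the control arrays, and the interval of its log2 difference (0.32, -0.20 to 0.84, adjusted p = 0.456) leaves out a 2-fold rise. Ldhb, the subunit of oxidative tissue, had 0.16 (-0.42 to 0.74, adjusted p = 0.764). The monocarboxylate carrier Slc16a1 was bright in both groups and differed by 0.02 (-0.53 to 0.57, adjusted p = 0.970). Slc16a3, the carrier of lactate-exporting cells, had 75.1, 27.5 and 33.4 in the replacement arrays, against 17.4, 13.3 and 20.3 in the control arrays. Replacement 1 stood over the other replacement arrays, 1 control array was under the floor and was set to it, and the difference of 1.21 or more (0.33 to 2.09, adjusted p = 0.0898) did not pass.

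Gluconeogenesis split, with 3 of 6 genes lower and 1 higher. Pck1, the cytosolic phosphoenolpyruvate carboxykinase that draws carbon out of the mitochondrial cycle, had 601, 663 and 702 in the replacement arrays, against 2773, 2316 and 2526 in the control arrays. The spread within each group was small beside the gap, a 3.96-fold fall (log2 difference -1.99, SE 0.230, adjusted p = 0.00105). The difference was -2.02 within the samples with Xist and -2.01 within those with Y-linked transcripts. Fbp1, the fructose bisphosphatase of liver and gut, had 1813, 1361 and 1085 in the replacement arrays, against 4279, 4011 and 4334 in the control arrays, a 3.04-fold fall (log2 difference -1.60, SE 0.271, adjusted p = 0.00689). G6pc, the catalytic unit that releases free glucose, had 485, 493 and 462 in the replacement arrays, against 955, 920 and 950 in the control arrays. Both groups were tight and the fall was 1.97-fold (log2 difference -0.98, SE 0.222, adjusted p = 0.0258). Without replacement 2 and without replacement 3 the adjusted p of G6pc was 0.0759 and 0.0994.

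Of the other gluconeogenic genes of the set Pcx rose, and Pck2 and Fbp2 did not pass. Pcx, the mitochondrial carboxylase that makes oxaloacetate from pyruvate, had 148, 86.6 and 102 in the replacement arrays, against 43.5, 47.5 and 46.1 in the control arrays, a 2.43-fold rise (log2 difference 1.28, SE 0.278, adjusted p = 0.0213). Its probe sets disagreed: array control probe sets named for Pcx gave 1.01, 0.58 and 0.12, and the mean of all its probe sets did not pass (0.75, adjusted p = 0.105), nor did the fit without replacement 3 (1.33, adjusted p = 0.0878). Pck2, the mitochondrial carboxykinase, had a difference of 0.06 (95% interval -0.47 to 0.60, adjusted p = 0.908), so a 2-fold change lies outside its interval. Fbp2, the muscle-type bisphosphatase, had 1310, 1309 and 1047 in the replacement arrays, against 1431, 1693 and 1709 in the control arrays. These did not overlap, but the difference of -0.36 (-0.90 to 0.18, adjusted p = 0.409) missed the threshold. Khk, which phosphorylates fructose, had 365, 259 and 247 in the replacement arrays, against 555, 361 and 396 in the control arrays. Its groups overlapped and the difference of -0.68 (-1.31 to -0.05, adjusted p = 0.170) did not pass.

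**Figure D3:**
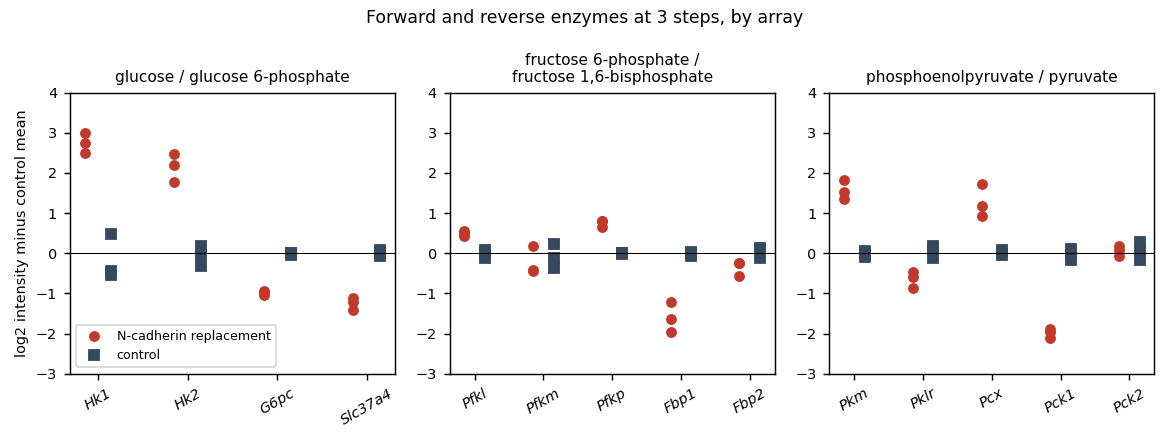
Log2 intensity of each array minus the control mean of that gene at 3 steps where glycolysis and gluconeogenesis use different enzymes; red circles are N-cadherin replacement arrays and dark squares control arrays. Hk1, Hk2, Pkm and Pcx lie over their controls, and G6pc, Slc37a4, Fbp1 and Pck1 under theirs.

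In the pentose phosphate pathway 1 of 3 tested genes rose. Pgd, the dehydrogenase that forms NADPH and ribulose phosphate, had 1664, 2114 and 1822 in the replacement arrays, against 517, 842 and 891 in the control arrays. Control 1 was the lowest, and the rise was 2.77-fold (log2 difference 1.47, SE 0.280, adjusted p = 0.0121). Leaving out control 1 gave 1.10 and leaving out control 2 and control 3 gave 1.84. Pgd also missed the threshold when replacement 2 was left out (1.38, adjusted p = 0.0561) or replacement 3 (1.49, adjusted p = 0.0698). The probe set may cross-hybridize, and the Pgd probe set without that suffix gave 1.02 (adjusted p = 0.0293 with such probe sets left out). Tkt, the transketolase that links the pathway back to glycolysis, depended on the probe set. Its brightest one, marked for possible cross-hybridization, had 4112, 2928 and 4228 in the replacement arrays, against 2596, 2872 and 2720 in the control arrays, a difference of 0.46 (95% interval -0.11 to 1.03, adjusted p = 0.309). The Tkt probe set without that suffix had 1577, 1623 and 1528 in the replacement arrays, against 690, 785 and 756 in the control arrays, a difference of 1.11 (SE 0.224, adjusted p = 0.0160 with such probe sets left out, a setting chosen after the data were seen). Taldo1, the transaldolase, had -0.03 (-0.62 to 0.56, adjusted p = 0.957) with overlapping groups.

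**Figure D4:**
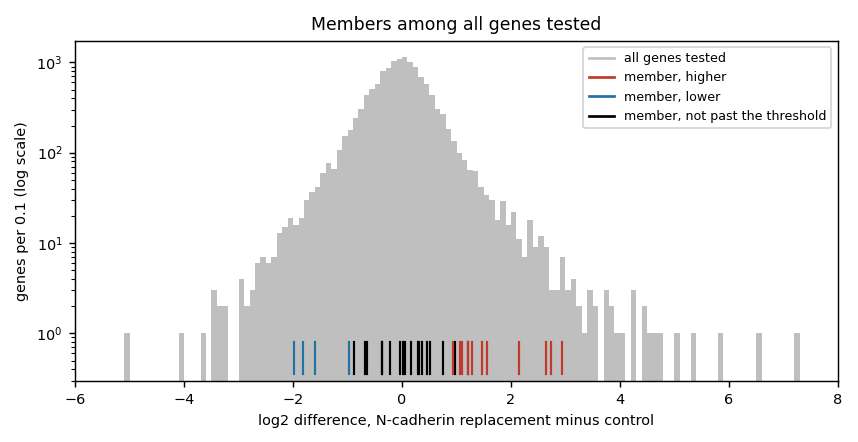
Number of genes (log scale) by log2 difference (replacement minus control) for all 12995 genes tested, in grey, with a tick for each of the 33 genes of glucose metabolism, red for higher, blue for lower and black for not passing. The median of the ticks is 0.36 and that of all genes -0.02.

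Further lists of glucose handling are read against the 9.12% of all genes that passed. In a list of other glycolysis and fructose genes 2 of 19 tested rose and 1 fell, with a median difference of 0.04. Slc2a2, the carrier that passes glucose out of enterocytes to the blood, had 593, 521 and 505 in the replacement arrays, against 1847, 1982 and 1826 in the control arrays, a 3.48-fold fall (log2 difference -1.80, SE 0.227, adjusted p = 0.00162). Pgm2, a phosphoglucomutase, rose 3.51-fold (log2 difference 1.81, SE 0.251) and Mpi, which ties fructose phosphate to mannose phosphate, 2.16-fold (1.11, SE 0.237). Slc37a4, which carries glucose phosphate to the phosphatase in the endoplasmic reticulum, was the only one of 9 other gluconeogenesis genes to pass. It had 513, 550 and 442 in the replacement arrays, against 1138, 1262 and 1205 in the control arrays, a 2.37-fold fall (log2 difference -1.25, SE 0.233, adjusted p = 0.0111). Of 9 other pentose phosphate genes Prps1, which makes the activated ribose of nucleotide synthesis, rose (0.90, SE 0.238), and of 11 genes of pyruvate entry into mitochondria Pdp1, a phosphatase that reopens pyruvate dehydrogenase, rose (1.66, SE 0.271).

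Of 18 transcriptional regulators of glucose metabolism 3 rose and 1 fell. The oxygen-sensing factor Hif1a had 640, 951 and 1089 in the replacement arrays, against 413, 435 and 434 in the control arrays (log2 difference 1.04, SE 0.278, adjusted p = 0.0472). Epas1, of the same family, rose by 1.10 (SE 0.231) and the growth factor-responsive Myc by 1.13 (SE 0.294). Crtc2, a coactivator of the cAMP response, was under the floor on every replacement array and had 34.2, 24.2 and 30.0 in the control arrays, so it entered the test through the control arrays alone. Its fall was 1.90-fold or more (-0.92 on the log2 scale as its bound, SE 0.233, adjusted p = 0.0389). Its probe set carries the suffix of possible cross-hybridization, and the floor left no spread among its replacement values. Crtc2 did not pass without the filter (adjusted p = 0.0968) or with the mean of all its probe sets (-0.61, adjusted p = 0.121). Hif1a also missed the threshold under quantile normalization (adjusted p = 0.0509), equal array medians (0.0567), a floor of 1 (0.0901) and the mean of all its probe sets (0.0656). A floor of 1 likewise ended the calls of Prps1 (0.0786) and Myc (0.0855), and equal medians that of Prps1 (0.0571). All 10 of these listed genes, Slc2a2 to Crtc2, lost the call without control 1 and without control 2 and control 3 (adjusted p up to 0.317). Without replacement 3 the calls of Mpi, Slc37a4, Prps1, Hif1a, Epas1, Myc and Crtc2 were lost too, and without replacement 2 those of Mpi, Prps1, Hif1a, Myc and Crtc2. Without the filter the log2 differences of the 10 genes were the same. Only Slc2a2 then kept its call (limma adjusted p = 0.0329), and the others had 0.0696 to 0.247.

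**Figure D5:**
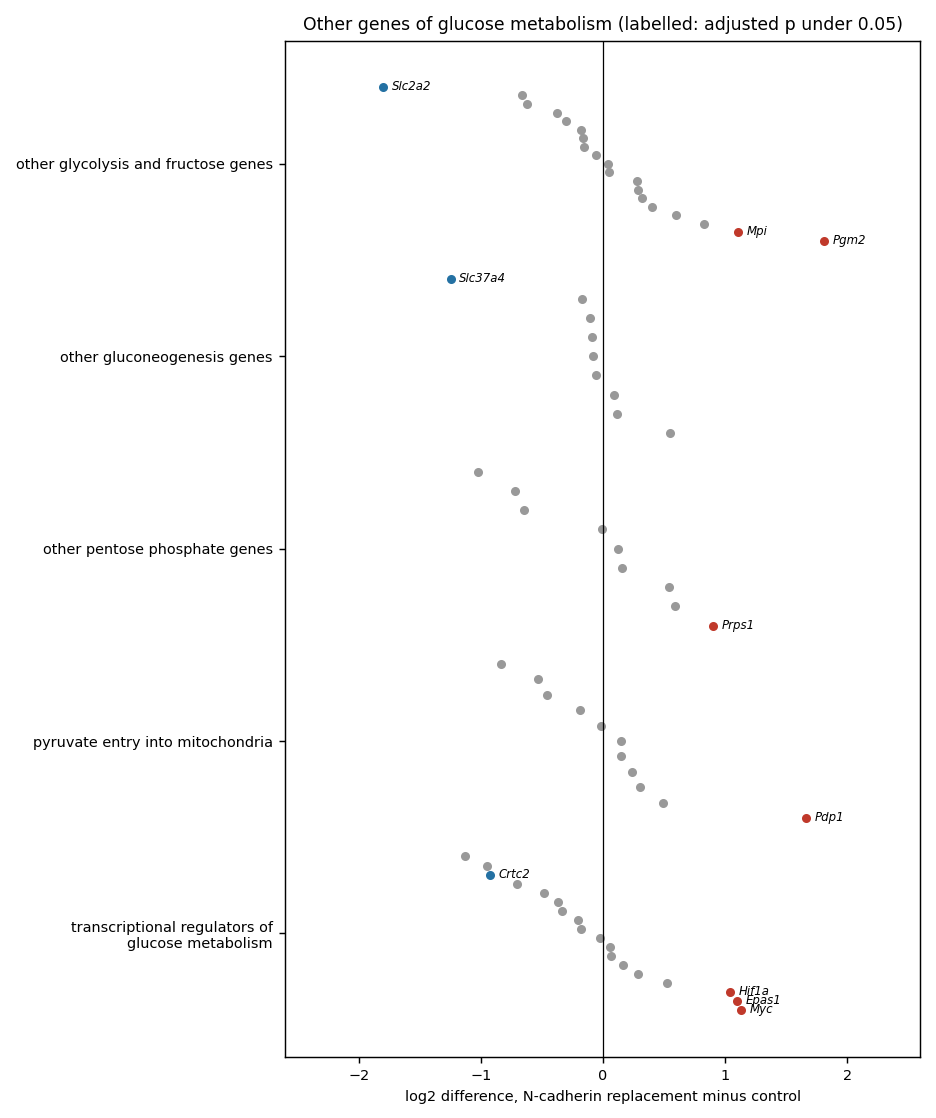
Log2 difference (replacement minus control) of tested genes in 5 further lists of glucose metabolism, each list spread down the page in order of the difference; red is higher and blue lower at an adjusted p under 0.05, and only those genes are named. Pgm2 and Pdp1 lie furthest up among them (1.81 and 1.66) and Slc2a2 furthest down (-1.80).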

How the data were processed

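The authors deposited linear intensities of 45101 probe sets on 6 arrays. Their 2% trimmed mean is 100 on each array. GCRMA and limma are named, unordered and without versions, per the submitters' processing notes. How the intensities were summarised is not stated there. They were floored at 16 and log2 was taken, so differences of dim transcripts are compressed and are given as bounds where arrays of the lower group lay under the floor. Probe sets with at least 3 arrays at or over 16 were kept (26664). Of all probe sets 34958 had 1 gene symbol, 932 had several and 9211 were unnamed; 34754 matched the GRCm38.p6 gene table by Entrez identifier. The brightest kept probe set stood for its gene, array control probe sets named for a mouse gene included, which brought in Gapdh. Control 2 and control 3 were averaged as 1 replicate. All 12995 genes were fitted together (lmFit and eBayes of limma 3.58.1, R 4.3.3), with Benjamini-Hochberg adjustment and a threshold of 0.05, and the fit was tested on simulated data. Intervals are 95% intervals of that fit. The number of arrays limits the precision, and arrays have no read depth. Replicate numbers in the titles were not used as pairs: deviations of same-numbered samples correlated under 0.1 for each number (-0.00079 at the highest). Control 2 and control 3 were nearly alike, so this check cannot exclude a pairing. All 37 genes are named; of the other lists, genes past the threshold are. Members, lists and tests were chosen with earlier results of these data known. Alternatives were other filters, floors, scalings, probe set rules, eBayes options, array weights, sex, the replicate block and each replicate left out. Figures were drawn with matplotlib 3.10.9.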

Additional observations from a re-analysis of the deposited data

How the results depend on the processing

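None of the 15 called genes of glucose metabolism, nor of the 10 further genes named, changed sign under an alternative run. The groups overlapped for none of these genes, so leaving out a replicate could not change a sign. With all 6 arrays as separate samples 1118 genes rose and 1234 fell, against 580 and 605 in the reported fit. With the replicate block, on the same 6 arrays, the counts were 994 and 1108. Array weights gave 884 and 926, and a floor of 1 gave 397 higher and 350 lower, with 8 and 4 of glucose metabolism. With sex as a covariate 13 genes of glucose metabolism rose and 4 fell, the 15 called genes of the reported fit included. Without a filter on dim probe sets, over 18194 genes, 70 and 92 passed. Among them were 1 higher (Pgam2) and 2 lower (Pck1 and G6pc) of glucose metabolism. The log2 differences of the 15 and 10 genes were unchanged in that fit, so the lost calls reflect its test and not its differences. Its SE was 0.0360 for G6pc, against 0.222 in the reported fit, and 0.398 for Slc2a1, against 0.326. Pgam2 was under the floor on all control arrays. With every probe set tested by itself 7 genes of glucose metabolism rose. Leaving out 1 replicate at a time gave 3 to 827 genes higher and 1 to 833 lower. Without control 1 the counts were 8 and 3, without control 2 and control 3 they were 3 and 1, without replacement 2 they were 271 and 258, and without replacement 3 they were 208 and 169. Of glucose metabolism 0 to 10 genes were then higher and 0 to 5 lower, with a median difference of 0.27 to 0.46. The cause was not tested. A floor of 1 ended the calls of Aldoa (adjusted p = 0.0775), Pcx (0.0501) and Pgam1 (0.0722). Testing every probe set ended those of Aldoa (0.0885), Pcx (0.0574), Pdk1 (0.0514), Pgam1 (0.0836) and G6pc (0.0562), and of Prps1, Hif1a, Myc and Crtc2. Calls gained were Pfkp, Pdk2, Pklr and Slc16a3 with all 6 arrays, Pfkp, Pdk2 and Slc16a3 with the block, Pfkp and Pdk2 with array weights, Pdk2 without replacement 1, Pfkp with a filter at 64 or a trend in eBayes, and Aldoc and Slc16a3 with sex in the fit. Leaving out probe sets marked for cross-hybridization, chosen after seeing the data, gained Tkt and left Aldoa and Crtc2 untested.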
